A study of Rattus norvegicus with 8 samples.

Results

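The 159 most abundant long noncoding RNAs (lncRNAs) of H9c2 cells were examined, taken as the genes that the deposited count table types as lncRNA and that reached a mean of at least 3 CPM (counts of a gene divided by the library total, scaled to a total of 1 M) over 8 libraries. They were 159 of 7888 lncRNA genes in the table, of which 4064 had no count in any library, and of 40994 genes in all. Within that type they were chosen by their level, and the set was defined with earlier results of these data known. H9c2 cells are rat heart myoblasts kept as a line, and they carried no genetic modification. In 4 libraries the cells had been given 100 µg/ml OxPAPC for 6 h, and in 4 they had been given vehicle. OxPAPC is a mixture of oxidized forms of a phosphatidylcholine that occurs in membranes and lipoproteins. The study's stated interests were NOX1, oxidative stress and glucose metabolism. Whether the samples were separate cultures is not stated, so the p-values speak of the spread among these libraries, which can be partly technical.

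lncRNAs are transcripts with no long open reading frame, and they act in several known ways. Some stay in the nucleus and bind chromatin or proteins, and some carry microRNAs (miRNAs) or small nucleolar RNAs (snoRNAs) that are cut out of them, so that the lncRNA is the precursor. Others start beside or lie across a protein-coding gene, where the act of transcription, more than the RNA, can be what matters. Small nucleolar RNAs guide chemical modification of ribosomal and other RNAs, and miRNAs pair through their seed, bases 2 to 8, with messenger RNAs that they repress.

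The minimum was applied to all 8 libraries together, without regard to the group of a library. Of the 159 lncRNAs, 147 were at or above it in both groups, 8 through the OxPAPC libraries only and 4 through the vehicle libraries only. Just inside it lay LOC120101662 at 3.08 CPM, LOC102555331 at 3.03 CPM and LOC102554092 at 3.01 CPM. Just outside lay LOC120097450 at 2.99 CPM, LOC100912991 at 2.97 CPM and LOC120096222 at 2.97 CPM. In 146 cases the symbol was a locus number and in 13 it was a gene name. The RefSeq annotation of assembly GRCr8 held 121 of the 159, typing 114 as lncRNA, 6 as protein coding and 1 as a pseudogene, so for 7 the type depends on the annotation.

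Library totals were 15.4 to 21.7 M counts, and the lncRNAs took 0.431 to 0.51% of them in the vehicle libraries and 0.416 to 0.482% in the OxPAPC libraries. Each had at least 21 counts in each library. The myoblast markers myogenin (Myog), Myod1, M-cadherin (Cdh15) and embryonic myosin (Myh3) were present. Pax7 and Myf5 were at or near 0, and Myf6 was at 0.349 and 0.134 CPM with vehicle and OxPAPC. Of 10 cardiomyocyte markers, Tbx5 was at 0, and Myh6, Myh7, Ryr2, Nppa and Nppb were at most 0.0639 CPM on average in either group. Nkx2-5 was at 0.548 and 0.777 CPM with vehicle and OxPAPC, while Tnnt2 (128 and 113 CPM), Actc1 (27.4 and 28.5 CPM) and Gata4 (8.57 and 9.82 CPM) were expressed. Myog, a transcription factor of muscle differentiation, fell from 95 ± 5.67 to 39.9 ± 1.46 CPM (SD, n = 4; log2 fold change -1.25 ± 0.05, adjusted p = 3.08e-15), and its part in the results below was not tested. The other tested myoblast markers did not share a fall of that size. Myod1 rose (0.13 ± 0.04), Myh3 fell (-0.16 ± 0.04), and Des, Cdh15 and Chrna1 did not pass. The 5 endothelial markers summed to 0.453 to 1.58 CPM in the vehicle libraries and 0.466 to 1.65 CPM in the OxPAPC libraries, with Cdh5 and Kdr at 0. Of 5 macrophage markers Ptprc and Adgre1 were at 0 and Cd68 and Csf1r under 1 CPM, while Cd14 stood at 23.9 and 21.5 CPM. Values per library are given below in the order vehicle 1, 8, 15 and 22, then OxPAPC 2, 9, 16 and 23. They are CPM of libraries scaled by TMM, a method that assumes most genes do not change, unless FPKM (per kb of exon as well) is named. A positive log2 fold change means a higher level with OxPAPC, and the value after ± is its SE.

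OxPAPC raised 30 of the 159 lncRNAs and lowered 18, by edgeR's quasi-likelihood test with p-values adjusted over 13206 genes, and 111 did not pass. Those called were 30.2% of the 159, against 34.3% of all tested genes. Higher calls were 18.9% against 17.9% of all tested genes, and lower calls 11.3% against 16.4%, so in neither direction were the lncRNAs called far more often than genes in general. Of the 147 lncRNAs at the minimum in both groups 27 rose and 17 fell, a count added after seeing the data. Among the 455 tested lncRNAs below the abundance minimum 8.35% were called (4.84% higher and 3.52% lower), and these had fewer counts. Every OxPAPC library exceeded every vehicle library for 24 lncRNAs (15.1%, against 16.8% of all tested genes) and fell short of every vehicle library for 20 (12.6%, against 15.6%). The log2 fold changes ran from -0.95 to 1.12 with a median of 0.05, beside 0.00 for all tested genes. At least 1.5-fold changes passed for 8 lncRNAs that rose and 4 that fell, and 2 of those that rose reached 2-fold. The median SE was 0.14 for the lncRNAs and 0.07 for all tested genes, and among those that passed the median size of the log2 fold change was 0.46 and 0.28. In bulk samples fewer cells that express a gene and less RNA per cell cannot be told apart.

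**Figure D1:**
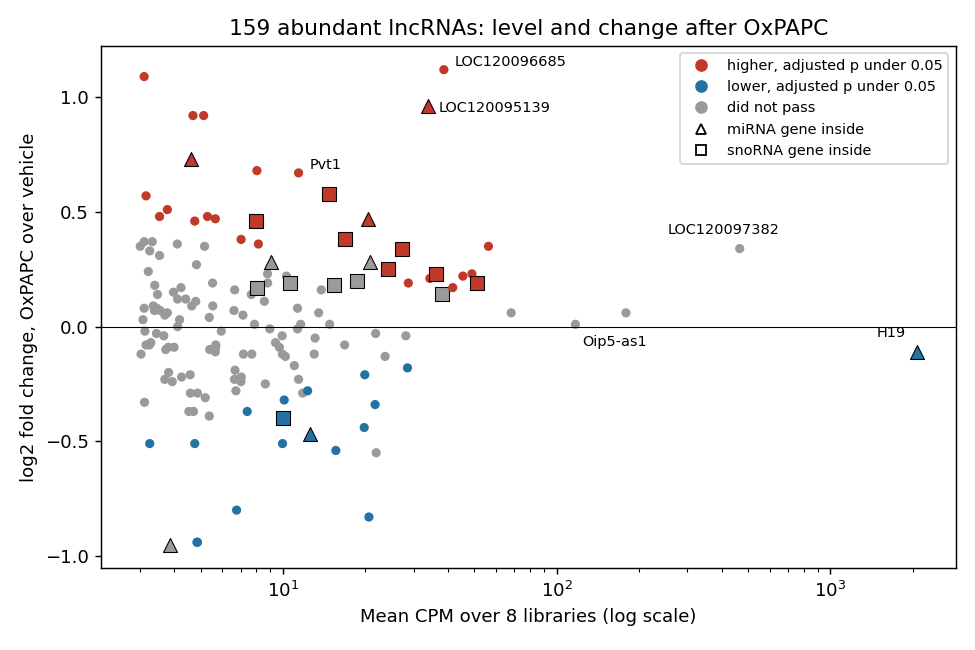
Mean CPM over the 8 libraries (log scale) against the log2 fold change, OxPAPC over vehicle, for the 159 lncRNAs; red and blue mark an adjusted p under 0.05, triangles and squares lncRNAs with miRNA or snoRNA genes inside their span. H19 stands apart in level at 2065 CPM and has a small change of -0.11, while LOC120096685 has the largest rise, 1.12.

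A single RNA dominated the set. H19, the imprinted RNA expressed from the maternal chromosome and long known from developing muscle, made up 41.8 to 50.6% of the counts of all 159. Its levels were 2205, 2120, 2225 and 2016 CPM with vehicle and 2001, 1937, 2021 and 1990 CPM with OxPAPC. The lowest vehicle library lay within the OxPAPC range, and the fall was small (log2 fold change -0.11 ± 0.03, adjusted p = 0.00394). Per length it also led, at a mean of 892 FPKM, followed by Gas5 at 120 FPKM, LOC100911177 at 55.1 FPKM and LOC120097382 at 51.3 FPKM.

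LOC120097382, on chromosome 1 beyond the 3′ end of Frmd8, came second by CPM and differed most between replicates among the 10 most abundant. It stood at 268, 353, 681 and 335 CPM with vehicle and 281, 573, 542 and 680 CPM with OxPAPC. Vehicle 15 and OxPAPC 23 were the highest of their groups and vehicle 1 and OxPAPC 2 the lowest, and the change did not pass (0.34 ± 0.39, adjusted p = 0.571). Oip5-as1, known in vertebrates as cyrano and for a strong pairing site for the miRNA miR-7, was the steadiest of the well-known RNAs. It stood at 113, 113, 118 and 121 CPM with vehicle and 118, 125, 118 and 108 CPM with OxPAPC, a change of 0.01 ± 0.04 (adjusted p = 0.85). LOC120101764 and LOC102549675, at 179 and 68.2 CPM, did not pass either, although every OxPAPC library of the first lay above every vehicle library.

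Precursors of miRNAs were 8 of the 159. The gene rows of 15 miRNAs lay wholly inside their spans on the same strand, a grouping made after the files had been seen. The libraries hold messenger RNA and do not measure the mature miRNAs. Mature sequences of the miRNAs are printed here because the seeds show which of them are related. They are the RefSeq entries for GRCr8, written 5′ to 3′ with the seed in capitals.
miR-22-3p: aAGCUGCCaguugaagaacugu
miR-221-3p: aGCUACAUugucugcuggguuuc
miR-222-3p: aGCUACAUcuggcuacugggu
miR-29a-3p: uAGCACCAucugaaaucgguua
miR-29b-3p: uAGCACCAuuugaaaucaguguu
miR-322-5p: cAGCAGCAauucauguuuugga
miR-503-5p: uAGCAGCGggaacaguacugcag
miR-351-5p: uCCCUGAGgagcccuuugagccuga
miR-675-5p: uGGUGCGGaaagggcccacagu
miR-206-3p: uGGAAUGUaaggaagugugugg
miR-133b-3p: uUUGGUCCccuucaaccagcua
miR-34a-5p: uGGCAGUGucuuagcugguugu
miR-143-3p: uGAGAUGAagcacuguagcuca
miR-145-5p: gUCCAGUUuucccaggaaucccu

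In the strands printed, miR-221 and miR-222 share 1 seed, GCUACAU, and miR-29a and miR-29b share another, AGCACCA. In each case both miRNAs lie in 1 lncRNA. The seeds of miR-322 and miR-503, AGCAGCA and AGCAGCG, agree in their first 6 bases. In the other precursors the miRNAs carry unrelated seeds.

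Of the 8 precursors 3 rose, 2 fell and 3 did not pass, beside 17.9% higher and 16.4% lower among all tested genes. LOC120095139 on chromosome 10, which spans the gene of miR-22, a miRNA abundant in heart and muscle, rose the most. It went from 19.5, 22.5, 28.1 and 21.6 CPM with vehicle to 36.1, 44.0, 47.2 and 51.3 CPM with OxPAPC. The groups did not overlap and the rise was 1.95-fold (0.96 ± 0.14, adjusted p = 0.00144). LOC120099382 on chromosome X holds miR-221 and miR-222, which are known for repressing the cell cycle inhibitor p27. It rose from 3.03, 3.98, 3.45 and 3.38 CPM to 6.32, 6.09, 5.25 and 5.5 CPM, again without overlap (0.73 ± 0.14, adjusted p = 0.000315). LOC120102485 on chromosome 4 holds miR-29a and miR-29b-1, whose family is known for repressing collagen messenger RNAs. Its level was 17.2, 18.1, 15.7 and 17.4 CPM with vehicle and 20.9, 26, 23.3 and 24.7 CPM with OxPAPC, every OxPAPC library being above every vehicle library (0.47 ± 0.08, adjusted p = 4.01e-05). On the log2(FPKM + 0.1) scale in limma this last rise did not pass (0.34, adjusted p = 0.0683).

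LOC102550366 on chromosome X, the precursor of miR-322, miR-503 and miR-351, a cluster known for restraining the cell cycle, fell. It stood at 12.5, 14.4, 17.2 and 13.8 CPM with vehicle and at 9.31, 11.7, 10.8 and 10.1 CPM with OxPAPC. No OxPAPC library reached the lowest vehicle library (-0.47 ± 0.10, adjusted p = 0.0011). H19 holds miR-675 in its span, and its fall is given above.

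LOC120094648 on chromosome 9 holds miR-206 and miR-133b, both known as muscle-specific miRNAs. It stood at 3.26, 4.81, 7.82 and 4.55 CPM with vehicle and 1.66, 2.52, 2.09 and 4.05 CPM with OxPAPC. OxPAPC 23 lay above vehicle 1, so the groups overlapped, and the value of -0.95 ± 0.33 missed the threshold (adjusted p = 0.0538). Its adjusted p ran from 1.13e-06 to 0.129 over the alternative settings, so the call depends on the setting: DESeq2 passed it (adjusted p = 0.00171). LOC103692514 holds the gene of miR-34a, a p53-responsive miRNA, and LOC120098113 holds miR-143 and miR-145 of smooth muscle. RefSeq names the latter Carmn, an RNA known in human cells for cardiac and smooth muscle differentiation. Neither passed, at 0.28 ± 0.48 and 0.28 ± 0.39, and both varied widely between replicates. LOC103692514 stood at 3.9, 8.47, 13.9 and 6.48 CPM with vehicle and 4.12, 11.6, 9.69 and 13.7 CPM with OxPAPC. Carmn stood at 11.1, 17.2, 29.3 and 17.6 CPM and then at 12.6, 22.9, 20.6 and 34 CPM. In both, vehicle 15 and OxPAPC 23 were the highest of their groups.

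Hosts of snoRNAs were 13 of the 159 and contained 36 snoRNA gene rows. Of these hosts 7 rose, 1 fell and 5 did not pass, with 12 of 13 log2 fold changes above 0 and a median of 0.20. Among all tested genes 17.9% were higher and 16.4% lower, with a median of 0.00. For the 138 lncRNAs with neither kind of small RNA gene the median was 0.01, with 20 higher and 15 lower. They were found by position because names do not show them: of 21 symbols of known host lncRNAs 4 matched and 3 were tested, and besides Gas5 these were Snhg4 (0.48 ± 0.34) and Dancr (-0.18 ± 0.22), both under the abundance minimum, neither of which passed. Hosts are known to be spliced, stripped of the snoRNA in an intron and in several cases degraded in the cytoplasm by nonsense-mediated decay, so their level reflects both making and decay.

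Gas5, whose introns hold 9 of the snoRNA rows, 1 named snR60 and the others named SNORD, is a growth-arrest RNA known to end its life by nonsense-mediated decay. It measured 46.1, 46.4, 52.6 and 46.6 CPM with vehicle and 50.6, 59.1, 53.9 and 54.8 CPM with OxPAPC. The groups overlapped through vehicle 15, and the rise of 0.19 ± 0.06 passed (adjusted p = 0.01), though not without OxPAPC 9 (0.15, adjusted p = 0.0583). LOC120102992, with SNORA16, SNORA44, SNORA61 and SNORD99, rose the most. It went from 12.6, 10.5, 13.9 and 10.3 CPM to 19, 17.1, 16.5 and 18.0 CPM without overlap (0.58 ± 0.10, adjusted p = 4.72e-05). LOC100911534, with 3 rows of SNORA71, went from 6.76, 6.43, 6.74 and 7.12 CPM to 8.65, 8.98, 9.56 and 9.79 CPM, again without overlap (0.46 ± 0.10, adjusted p = 0.00135).

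The other risers among the hosts were smaller in fold. LOC100909675 (SNORD93) rose by 0.38 ± 0.08 and LOC103691688 (SNORA24) by 0.34 ± 0.09, in both with all OxPAPC libraries above all vehicle libraries. LOC100911177 (SNORD12) rose by 0.25 ± 0.07 and LOC102549726 (SNORD48 and SNORD52) by 0.23 ± 0.06, in both with overlap. LOC102549726 did not pass when vehicle 1 and OxPAPC 2 were left out together, at 0.17 with an adjusted p of 0.0815.

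LOC102547183, with SNORD64, was the only host of the 13 that fell. It stood at 11.4, 11.9, 10.8 and 11.6 CPM with vehicle and 7.65, 8.61, 9.62 and 8.69 CPM with OxPAPC, with no overlap (-0.40 ± 0.10, adjusted p = 0.0025). The 5 hosts that did not pass had values of 0.14 to 0.20. The largest of them by CPM, LOC100912041, holds 7 SNORD rows and starts beside Slc3a2, which encodes the chaperone subunit of several amino acid exchangers. Vehicle 15 was its highest library, at 45.3 CPM against 32.1 to 34.8 CPM in the other vehicle libraries. Without that library it passed (0.26, adjusted p = 0.0134), as did LOC100911266 (0.36, adjusted p = 0.0278) and LOC102556004 (0.24, adjusted p = 0.0451).

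**Figure D2:**
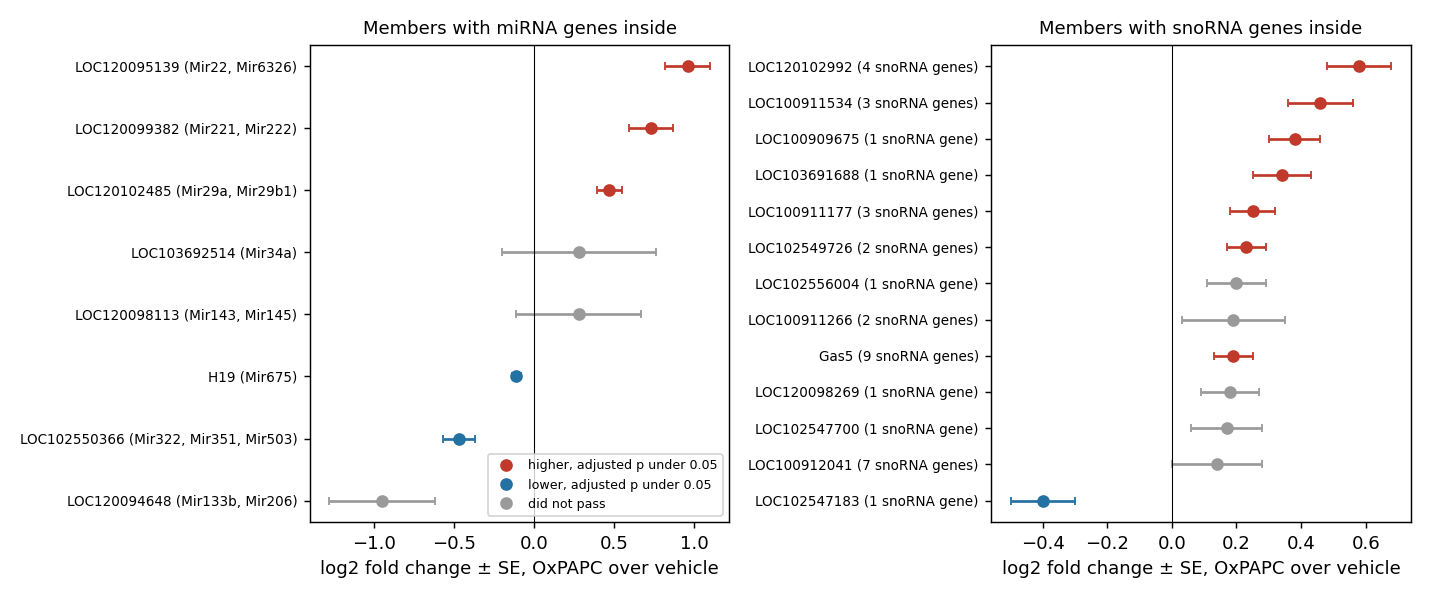
Log2 fold change with SE, OxPAPC over vehicle, of the 8 lncRNAs with miRNA genes inside (left, names of the miRNA genes in brackets) and the 13 with snoRNA genes inside (right); red and blue mark an adjusted p under 0.05. The precursors of miR-22, miR-221 and miR-29 lie to the right at 0.96, 0.73 and 0.47, and of the hosts of snoRNAs LOC102547183 alone lies left of 0, at -0.40.

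Proteins that bind and process such RNAs were taken from 5 gene lists, and their counts are to be read beside the 17.9% higher and 16.4% lower of all tested genes. Of 14 tested snoRNP proteins 5 rose and none fell, among them Nolc1 (0.18 ± 0.03), a chaperone of snoRNPs in the nucleolus, Nop56 (0.18 ± 0.04), a core protein of SNORD particles, and Dkc1 (0.20), the pseudouridine synthase of SNORA particles. Of 19 factors of nonsense-mediated decay 5 rose, with the helicase Upf1 at 0.23 ± 0.04 and Smg5 at 0.22 ± 0.04, and 1, the decapping enzyme Dcp2, fell (-0.39). Of 22 proteins of the nuclear RNA exosome and its adaptors 5 rose and none fell. The exosome adaptor Zfc3h1 rose by 0.44 ± 0.04 (adjusted p = 5.69e-08), and the poly(A) polymerase Tent4b rose by 0.28 ± 0.04. Of 16 paraspeckle proteins 1 rose and 3 fell, among them Pspc1 (-0.36) and Nono (-0.14 ± 0.03). Of 15 genes for RNA methylation of the m6A kind 4 rose and 1 fell, with the writer subunit Zc3h13 at 0.34 ± 0.05 and the eraser Fto at -0.24 ± 0.04. In each of these 5 lists most genes did not pass, and the median log2 fold changes lay between 0.01 and 0.09.

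Of the lncRNAs with gene names and a known nuclear role, Pvt1 and Tug1 rose. Pvt1 is the neighbour of the Myc gene and is known in human cancers for being amplified with it. It stood at 6.93, 9.3, 9.74 and 9.22 CPM with vehicle and 13.0, 14.2, 13.8 and 15 CPM with OxPAPC. Every OxPAPC library was above every vehicle library (0.67 ± 0.10, 1.59-fold, adjusted p = 1.89e-05). Tug1, a nuclear RNA that in mice is needed for male fertility, rose from 42.1, 43.8, 44.0 and 50.5 CPM to 56.6, 54.3, 48.6 and 52.2 CPM. The groups overlapped through vehicle 22 and OxPAPC 16 (0.23 ± 0.06, adjusted p = 0.00393). Its change did not pass without vehicle 1 and OxPAPC 2 (0.17, adjusted p = 0.0637).

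Fendrr, which in mice is needed for the heart and body wall of the embryo, fell. It measured 12.9, 13.7, 11.9 and 15.6 CPM with vehicle and 11.6, 10.9, 11.5 and 10.6 CPM with OxPAPC, so the groups were close but did not overlap. The fall of -0.28 ± 0.09 (adjusted p = 0.0239) lost its call without vehicle 22 (-0.21, adjusted p = 0.11) and without OxPAPC 9, OxPAPC 23 or vehicle 8. Crnde, an RNA known from colorectal tumours, was at -0.02 ± 0.18. Jpx, which in mice activates Xist, is the RefSeq name of LOC102555331 and was at -0.12 ± 0.20. Thumpd3-as1 was at 0.17 ± 0.18 and Lrap at -0.13 ± 0.06. None of these 4 passed.

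A few entries are better known as coding, besides LOC100912557, LOC100912167 and LOC102547703, which RefSeq also types as protein coding. Mtln encodes mitoregulin, a small protein of the inner mitochondrial membrane. It measured 13.3, 11.1, 13.2 and 11.8 CPM with vehicle and 10.2, 12.0, 10.5 and 9.24 CPM with OxPAPC. The groups overlapped and the value of -0.23 ± 0.10 did not pass (adjusted p = 0.0771), although 5 alternatives passed it. Ndufb1, a subunit of respiratory complex I, was at -0.04 ± 0.25, Rhno1 of the DNA damage checkpoint at -0.05 ± 0.09 and Tmem80 at 0.01 ± 0.10, and none passed. Foxm1, a transcription factor of cell division, lies 123 bases from Rhno1 in the opposite direction and fell by 0.30 on the log2 scale (adjusted p = 0.000956).

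Neighbouring genes were then examined, since 134 of the 159 lncRNAs had another gene within 10 kb and 85 overlapped one, 66 of them on the opposite strand. The labels name both directional and non-directional libraries, so counts of genes that overlap on opposite strands may be mixed, and values of such pairs are uncertain. Tested genes lay within 10 kb of 112 lncRNAs and made 182 pairs. In 24 pairs both genes passed, and in 20 of the 24 (83.3%) they moved the same way. Among 5988 pairs of tested genes that were both protein coding, taken by the same distance, both passed in 660 and moved the same way in 408 (61.8%). The neighbours of the lncRNAs were not all protein coding, since snoRNA, lncRNA, snRNA and pseudogene rows were taken too. Without miRNA and snoRNA neighbours 173 pairs remained, with the same 20 of 24. Across pairs the log2 fold changes had r = 0.46 for the lncRNAs (182 pairs) and 0.10 for the protein-coding genes (5988 pairs). Pairs share libraries and some share a gene, so this is a description. By count of pairs, 11% of lncRNA pairs and 6.81% of protein-coding pairs moved together past the threshold. Over all pairs, passed or not, 59.9% of lncRNA pairs and 54.3% of protein-coding pairs had log2 fold changes of the same sign. Without vehicle 22 the number of pairs that moved the same way was 13 in place of 20.

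Divergent pairs, whose starts face away from each other, often share a promoter region. There were 51, with r = 0.58 across them, and in all 9 in which both genes passed they moved the same way. For divergent pairs of protein-coding genes it was 80 of 116 (69%), with r = 0.12 across all pairs. The lncRNA passed in 15 of the 51, so some partners of passing lncRNAs did not pass. LOC100911177 (0.25) passed beside Znfx1 (-0.03 ± 0.07), which did not. Slc3a2 rose by 0.99 ± 0.03 and Nr2f1 by 0.46 ± 0.06. Their partners LOC100912041 (0.14) and LOC102549789 (0.01) did not pass. These pairs are named after their values were seen. Of pairs that overlap on opposite strands there were 58, and in the 6 in which both passed the direction was shared, against 62 of 85 (72.9%) for protein-coding genes. Convergent pairs numbered 31, with 4 of 5 in 1 direction, against 108 of 199 (54.3%). Of pairs on the same strand, 1 of 3 without overlap shared the direction, and 0 of 1 with overlap. Over all pairs, passed or not, convergent lncRNA pairs shared the sign in 45.2%, below the 53.2% of protein-coding genes. For divergent pairs it was 64.7% against 55.3%, and for opposite-strand overlaps 60.3% against 54.4%. On the same strand it was 54.8% against 54.1% without overlap, and 90.9% of 11 pairs against 61.2% with overlap. The log2 ratio of lncRNA to neighbour was compared between groups for the 16 lncRNAs that moved with their nearest tested gene, with an exact permutation test (two-sided, 70 splits), whose smallest p is 0.0286. None of the 16 had a p under 0.05, and the smallest p was 0.0571. The pairs had been chosen for a shared direction, and adjustment over 16 tests at that smallest p leaves almost no room to pass, so this does not show that the ratios stayed the same.

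**Figure D3:**
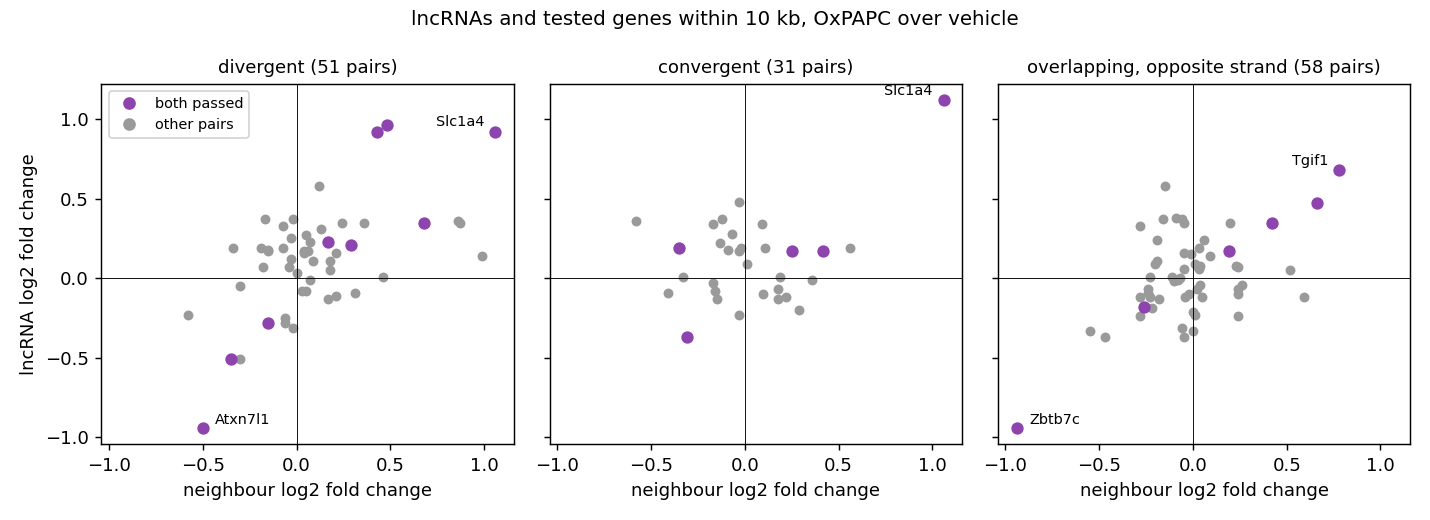
Log2 fold change of each lncRNA (vertical) against that of a tested gene within 10 kb (horizontal), OxPAPC over vehicle, for divergent, convergent and opposite-strand overlapping pairs; purple marks pairs in which both genes passed at an adjusted p under 0.05. In the left and right panels all purple points lie in the quadrants of shared direction, and Slc1a4 has a partner at each of its ends, at 0.92 and 1.12.

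The Slc1a4 locus on chromosome 14 held the largest change of all 159. Slc1a4 encodes ASCT1, a transporter of neutral amino acids such as serine and alanine, and rose from 151 ± 2.65 to 315 ± 7.94 CPM (SD, n = 4; log2 fold change 1.06 ± 0.03, adjusted p = 1.62e-17). LOC120096685, which lies 1109 bases beyond its 3′ end on the opposite strand, stood at 23.8, 25.3, 23 and 25.5 CPM with vehicle and 49.4, 51.6, 58.2 and 53.2 CPM with OxPAPC. The groups were far apart (1.12 ± 0.06, 2.17-fold, adjusted p = 7.84e-13). LOC108352807, which starts 379 bases from the start of Slc1a4 in the other direction, rose from 3.03, 3.05, 4.25 and 2.68 CPM to 4.59, 5.78, 6.9 and 7.25 CPM. It too showed no overlap (0.92 ± 0.17, 1.89-fold). The log2 ratio to Slc1a4 differed between groups by 0.06 for LOC120096685 (exact permutation p = 0.514) and by -0.15 for LOC108352807 (exact permutation p = 0.514).

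Further divergent risers lay beside Wdr81, Hmga1, Bdkrb1 and Rsl1d1. The precursor of miR-22 described above starts 9464 bases from Wdr81, a protein of endosomes that rose by 0.48 ± 0.04, and its ratio to Wdr81 was higher by 0.49 (exact permutation p = 0.0571, adjusted p = 0.457). LOC120098859 starts 8588 bases from Hmga1, an architectural protein of chromatin, in the deposited table and 743 bases from it in GRCr8. It went from 4.02, 2.87, 4.3 and 3.03 CPM to 6.92, 5.62, 7.03 and 7.3 CPM, with no overlap (0.92 ± 0.15, adjusted p = 5.13e-05), beside 0.43 ± 0.04 for Hmga1. LOC120103615 on chromosome 6 lies between both bradykinin receptor genes, starting 46 bases from Bdkrb1 and overlapping Bdkrb2 on the opposite strand. Its level was 51.1, 49.6, 46.4 and 51.1 CPM with vehicle and 64.1, 62.8, 65.2 and 60.2 CPM with OxPAPC, again without overlap (0.35 ± 0.05, adjusted p = 4.45e-06). Bdkrb1 rose by 0.68 ± 0.09 and Bdkrb2 by 0.42 ± 0.09. LOC100911627, named after its values were seen, starts 53 bases from Rsl1d1, a nucleolar protein, and rose by 0.21 (adjusted p = 0.00797) beside 0.29 ± 0.05.

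Among divergent pairs that fell, LOC102547703, which RefSeq types as protein coding, starts 46 bases from Atxn7l1, a relative of the ataxin-7 subunit of the SAGA complex. It stood at 4.25, 6.71, 8.21 and 6.42 CPM with vehicle and 3.26, 3.68, 2.72 and 3.6 CPM with OxPAPC. No OxPAPC library reached vehicle 1, the lowest of its group (-0.94 ± 0.18, adjusted p = 0.000236), and Atxn7l1 fell by 0.50 on the log2 scale. LOC100912066 starts 70 bases from Lclat1, an acyltransferase that remodels cardiolipin and other phospholipids. It went from 5.82, 5.88, 4.87 and 5.84 CPM to 3.59, 4.62, 3.42 and 4.05 CPM, without overlap (-0.51 ± 0.14, adjusted p = 0.00802), beside -0.35 ± 0.05 for Lclat1. LOC108351105 starts 35 bases from the transcription factor gene Foxd2 and fell by 0.51 (adjusted p = 0.000537), beside -0.30 ± 0.26 for Foxd2, which did not pass. Fendrr starts 950 bases from the transcription factor gene Foxf1, which fell by 0.15.

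The promoters of LOC102547703, LOC100912066 and LOC100911627 are printed because both genes of each pair start inside or beside 1 window and moved together. Each runs from 250 bases before to 50 after the start of the named gene in RefSeq GRCr8, where the paired starts lie 54, 75 and 53 bases apart, on the strand of that gene. Capitals mark the heat shock element core searched, GAANNTTC.
LOC102547703, chr6:55487216-55487515, minus strand: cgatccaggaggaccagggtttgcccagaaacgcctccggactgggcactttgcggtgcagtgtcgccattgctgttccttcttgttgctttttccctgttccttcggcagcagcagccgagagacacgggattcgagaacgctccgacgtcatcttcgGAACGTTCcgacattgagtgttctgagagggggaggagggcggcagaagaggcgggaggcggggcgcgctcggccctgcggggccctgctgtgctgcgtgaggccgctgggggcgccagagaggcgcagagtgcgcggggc
LOC100912066, chr6:28124901-28125200, plus strand: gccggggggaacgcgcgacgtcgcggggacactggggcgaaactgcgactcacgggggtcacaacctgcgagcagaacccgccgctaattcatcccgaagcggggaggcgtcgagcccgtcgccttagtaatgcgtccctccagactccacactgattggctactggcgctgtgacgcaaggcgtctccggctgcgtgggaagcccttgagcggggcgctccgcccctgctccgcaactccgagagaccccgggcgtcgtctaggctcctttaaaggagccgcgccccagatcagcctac
LOC100911627, chr10:4931737-4932036, minus strand: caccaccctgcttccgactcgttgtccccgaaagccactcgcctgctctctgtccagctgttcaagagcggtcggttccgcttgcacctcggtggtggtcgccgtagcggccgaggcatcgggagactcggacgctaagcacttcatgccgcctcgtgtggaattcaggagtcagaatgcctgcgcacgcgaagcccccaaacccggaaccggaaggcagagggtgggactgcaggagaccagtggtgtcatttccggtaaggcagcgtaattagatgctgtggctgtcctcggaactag

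Both strands were searched for 5 motifs. They were the antioxidant response element core TGACNNNGC, held by 12.2% of all 27457 promoters of this length, the AP-1 site TGANTCA (7.33%), the E-box CACGTG (6.65%), GAANNTTC (8.34%) and the amino acid response element core TGATGNAA (3.82%). The promoter of LOC102547703 held GAANNTTC, and the other two held none of the 5. RefSeq promoters were at hand for 93 of the 159 lncRNAs and 26 of the 48 that passed. That is under 80%, so a share of motifs over the lncRNAs would be void and is not given.

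Overlapping pairs on opposite strands moved together as well, with the limit on strand given above. LOC102556385 lies on chromosome 18 within the span of Zbtb7c, a zinc finger transcription factor, over 38419 bases. It went from 6.47, 6.48, 7.48 and 5.14 CPM to 2.86, 3.89, 2.98 and 3.45 CPM without overlap (-0.94 ± 0.15, adjusted p = 3.67e-05), and Zbtb7c had -0.94 ± 0.11. LOC102555570 overlaps 3606 bases of Tgif1, a homeodomain repressor in TGF-β signalling. It rose from 5.82, 6.15, 6.46 and 6.24 CPM to 8.85, 8.56, 11.1 and 11.1 CPM without overlap (0.68 ± 0.12, adjusted p = 6.49e-05), and Tgif1 rose by 0.78 ± 0.06. LOC103694321 (0.47) with Nr3c2, the mineralocorticoid receptor gene (0.66 ± 0.06), and LOC102547461 (-0.18) with Sec14l1 (-0.26 ± 0.04) are named after their values were seen. LOC120102958 rose by 0.17 ± 0.06 across the start of Atp6v0b, a subunit of the lysosomal proton pump (0.19 ± 0.06), but lost its call under 7 alternatives.

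In 4 pairs both genes passed and moved in opposite directions, and 3 of them are given here. LOC120100014, inside the span of the mitochondrial adenylate kinase gene Ak3 on the same strand, rose by 0.51 ± 0.16 (adjusted p = 0.0186) beside -0.11 ± 0.03 for Ak3. LOC102550895, which ends 144 bases from the end of Irf1, rose by 0.48 ± 0.17 (adjusted p = 0.0338), with Irf1 at -0.03 ± 0.09, and the carnitine transporter gene Slc22a5 7798 bases away had -0.31 ± 0.11. LOC120099940 rose by 0.36 beside -0.22 ± 0.07 for Rusf1. The changes of LOC120100014 and LOC102550895 each lost their call when several single libraries were left out.

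Of the 48 lncRNAs that passed, 18 had no tested gene within 10 kb. LOC120100006 on chromosome 1 was the most precise of the large falls. It stood at 27, 26.5, 25.9 and 25.7 CPM with vehicle and 12.9, 15.3, 17.3 and 13.6 CPM with OxPAPC. The vehicle libraries lay close together and well above each OxPAPC library (-0.83 ± 0.08, 1.78-fold, adjusted p = 2.46e-08). LOC120098555 on chromosome 19 fell from 9.03, 7.5, 10.1 and 7.88 CPM to 4.52, 4.73, 4.3 and 6.0 CPM without overlap (-0.80 ± 0.13). LOC120094743 fell by 0.54 (adjusted p = 1.47e-05) and LOC120103148 by 0.51 (adjusted p = 0.0214), each without overlap. LOC120103148 was at the minimum through the vehicle libraries only and lost its call under 4 alternatives, with adjusted p up to 0.105 (without vehicle 1 and OxPAPC 2).

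In 2 further falls a tested gene lay within 10 kb. LOC120099967 fell by 0.44 (adjusted p = 5.12e-05) without overlap, 6277 bases from LOC108349679, which did not pass (0.30 ± 0.25). LOC120103482, 350 bases from the end of Ehd3, a protein of endosome recycling, fell by 0.37 with overlap, beside -0.31 ± 0.06 for Ehd3. Its call was lost under 6 alternatives, the smallest value being -0.24 (adjusted p = 0.177) without vehicle 15 and OxPAPC 23.

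Among risers with no tested gene nearby, LOC120100648 on chromosome 2 had the second largest fold of the 159 and a wide spread. It stood at 1.69, 1.62, 3.45 and 1.23 CPM with vehicle and 2.86, 4.36, 5.25 and 4.4 CPM with OxPAPC. Vehicle 15 lay above OxPAPC 2, so the groups overlapped (1.09 ± 0.28, 2.12-fold, adjusted p = 0.00696). It was at the minimum through the OxPAPC libraries only, as were LOC120093143 and LOC102550895, so a rise was part of what admitted these 3. LOC120093143 rose by 0.57 ± 0.20 without overlap, and did not pass without vehicle 15 (0.41, adjusted p = 0.0981). With a tested gene beside it, LOC120101664, which begins 11 bases beyond the end of Rnf24 on the same strand, rose by 0.22 ± 0.06 (adjusted p = 0.00362) with no overlap. Rnf24 stood at 0.11 ± 0.14, which did not pass.

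**Figure D4:**
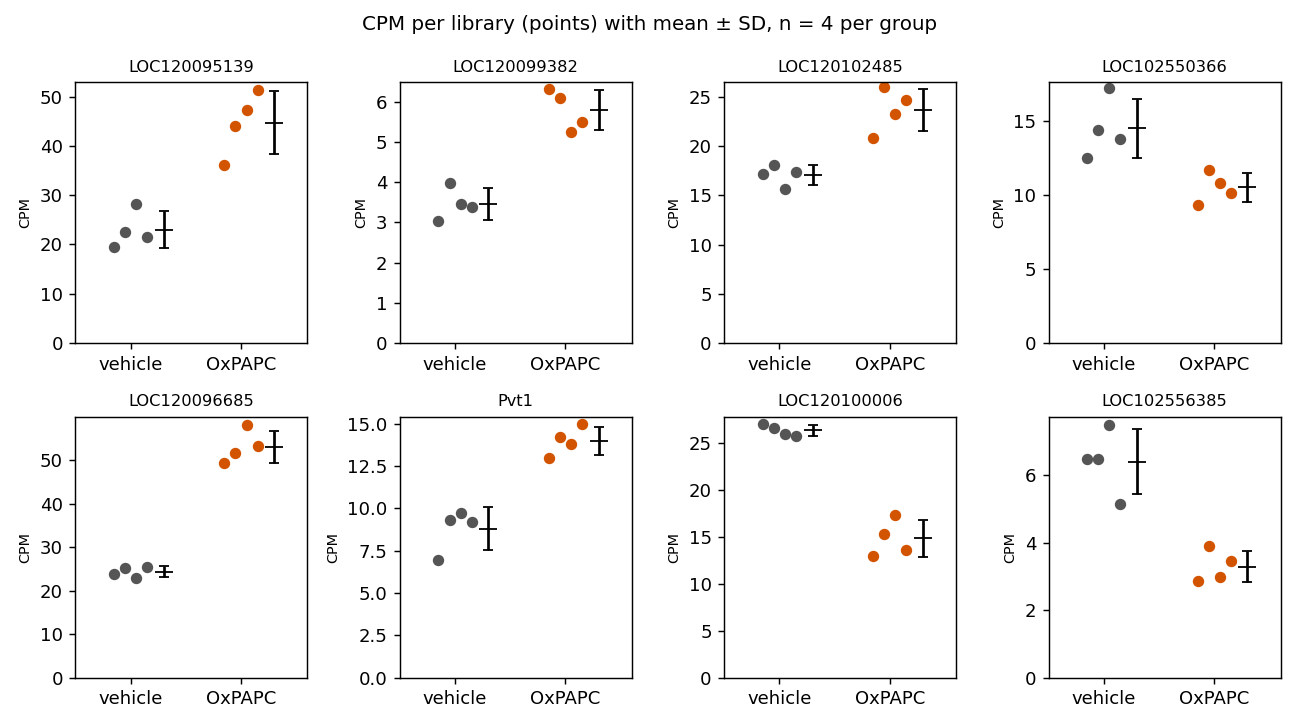
CPM of 8 lncRNAs in each library (points), with the mean and SD of 4 libraries beside them, from a baseline of 0. The precursors of miR-22, miR-221 and miR-29 (LOC120095139, LOC120099382, LOC120102485), LOC120096685 beside Slc1a4 and Pvt1 rise without overlap, and LOC102550366, LOC120100006 and LOC102556385 fall without overlap.

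The lncRNAs varied more between replicates than other genes, with a median coefficient of variation of 12.6% within a group against 7.04% for all tested genes. The part of depth in this was not tested. The spread was shared between lncRNAs. Vehicle 15 was the highest of the 4 vehicle libraries for 77 of the 159 (48.4%), against 28.6% of all tested genes. OxPAPC 2 was the lowest of its group for 73 (45.9%), against 25.8%. Among the 10 lncRNAs of widest spread, chosen after their values were seen, the coefficient of variation was 37.4 to 47.9%. Vehicle 15 was highest for 9 of these and OxPAPC 23 for 7, while vehicle 1 was lowest for 7 and OxPAPC 2 for 8.

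Of those 10, LOC120097382, Carmn and the precursors of miR-34a and of miR-206 are described above, and LOC120100648 alone passed. LOC120099785 had the widest spread of all, at 1.4, 2.87, 4.93 and 1.69 CPM with vehicle and 2.33, 3.73, 2.85 and 5.0 CPM with OxPAPC. LOC100912557, which RefSeq names Atp5mpl and types as protein coding, departed from the shared pattern through 1 library, with 4.56 CPM in OxPAPC 16 against 17.6 to 26.1 CPM in the other OxPAPC libraries. Leaving out H19, the lncRNAs took 0.281% of the counts in vehicle 15 and in OxPAPC 23, and 0.213% and 0.22% in vehicle 1 and OxPAPC 2. With vehicle 15 and OxPAPC 23 left out together 31 lncRNAs rose and 17 fell, and with vehicle 1 and OxPAPC 2 left out 24 rose and 19 fell, both settings chosen after seeing the data.

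**Figure D5:**
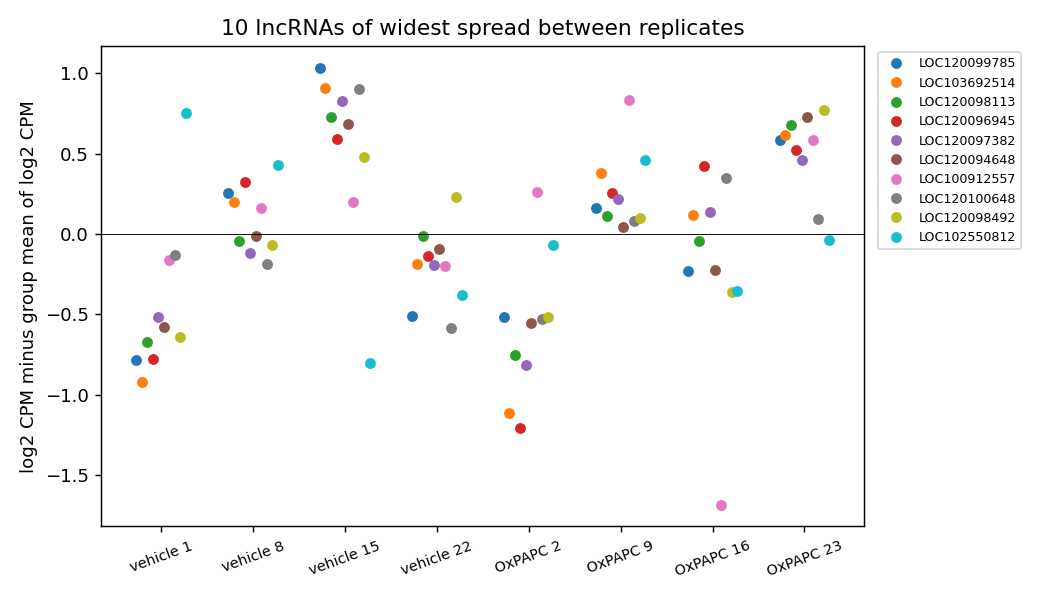
Log2 CPM minus the mean log2 CPM of its own group, in each of the 8 libraries, for the 10 lncRNAs of widest spread between replicates (colours). Vehicle 15 and OxPAPC 23 lie high and vehicle 1 and OxPAPC 2 low for most, with LOC102550812 the other way round in the vehicle group and LOC100912557 low in OxPAPC 16.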

How the data were processed

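The 8 libraries of messenger RNA carry the numbers of their titles and shared 1 batch date. The authors deposited 2 tables, one of raw read counts per gene and one of FPKM. The tools listed, per the submitters' processing notes, are featureCounts 1.5.0-p3, HISAT2 2.0.5 and StringTie 1.3.3b, with no role given. The genome build and strand setting are not given in the sources used here, and positions and gene types are those of the deposited count table. Chromosome numbers and further names came from RefSeq GRCr8, which held 91.9% of gene identifiers.

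Deposited counts went unchanged into edgeR 4.0.16 under R 4.3.3 (filterByExpr, minimum count 10, 13206 genes kept; TMM factors 0.976 to 1.03; robust quasi-likelihood test), with Benjamini-Hochberg adjustment over all tested genes and a threshold of 0.05. The fit was checked on simulated data. Alternatives used DESeq2 1.42.0 and limma 3.58.1. The deposited FPKM values served for levels per length and for 2 limma alternatives on log2(FPKM + pseudocount). All 159 lncRNAs passed the filter. Library depth limits precision, and the files record no molecular identifiers.

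The lncRNAs, gene lists and tests were chosen with earlier results of these data known. Named in the text were the 12 largest rises and 12 largest falls that passed, the 10 highest by CPM, those with a gene name or on a lncRNA list, their nearest tested gene within 10 kb, and 3 genes per protein list by smallest p. The 13 other hosts of small RNAs and the 10 of widest spread were added after their values were seen. Values of 2 genes are not reported here.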

Additional observations from a re-analysis of the deposited data

Results flagged for a closer look

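Each of 114 groups of 4 libraries of named lncRNAs was examined for a library far from the others of its group by Dixon's ratio. There were 4, while chance alone gives about 1 in 20 groups. Gas5 stood at 52.6 CPM in vehicle 15, with the other vehicle libraries at 46.1 to 46.6 CPM. LOC120094743 stood at 20.5 CPM in vehicle 8, with the others at 17.7 to 17.9 CPM. LOC120100014 stood at 3.46 CPM in OxPAPC 2, with the others at 4.67 to 4.85 CPM. LOC100912066 stood at 4.87 CPM in vehicle 15, with the others at 5.82 to 5.88 CPM.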

How the results depend on the processing

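No paired analysis was possible because the vehicle and OxPAPC libraries share no replicate number and the labels pair no libraries. Of the 48 lncRNAs that passed, 28 passed in all 19 alternative fits and 32 passed without each library in turn. With each library left out in turn, 23 to 32 lncRNAs rose, 14 to 19 fell and 13 to 21 pairs moved the same way. Other members by definition changed the counts. A minimum of 10 CPM left 55 lncRNAs, of which 16 were higher and 11 lower. Both are larger shares than the 17.9% higher and 16.4% lower of all tested genes. A minimum of 1 CPM took in more genes and gave 29 lower, and its higher calls and shares are not given here. The 74 lncRNAs overlapping no gene gave 12 higher and 12 lower. A distance of 50 kb gave 38 pairs in the same direction. These definitions also took different numbers of genes, and the part of that in the counts was not tested. Of 1083 values of named lncRNAs under the alternatives, 1012 kept their side of the threshold, 47 lost a call, 24 gained one and 0 changed sign with a call. Low counts limit the changes that can pass for lncRNAs near 3 CPM.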
